A study of Homo sapiens with 6 samples.

Results

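The 32 genes described here are known direct transcriptional targets of p53, listed by name with earlier results of these data known. They are sorted by role into arrest and feedback (8 genes), death (13 genes), repair (4 genes), and metabolic and secreted functions (7 genes). Each gene was represented by the brightest probe set that the platform annotation of 2016 assigns to it alone. That gave 30 measured genes among the 19775 named genes of the whole array. The probe set listed for BBC3, which encodes the BH3-only protein PUMA, is shared with other genes in that annotation, and no probe set was listed for FDXR, a ferredoxin reductase of the mitochondrion. Both were not analysed here. A further gene, EDA2R, a receptor for ectodysplasin A2, lay below the filter on dim probe sets, so 29 targets were tested.

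The cells were LS174T, an established mucin-producing human colon adenocarcinoma line. There were 3 cultures with CompE at 250 nM and 3 with the vehicle, DMSO, all kept for 48 h in the same serum-containing medium. The labels give the abbreviation CompE alone, which commonly stands for Compound E, a drug that blocks gamma-secretase and so keeps the intracellular domain of Notch receptors from being cut free. RNA of each culture was hybridised to 1 Affymetrix Human U133 Plus 2.0 array. The design has a single line, a single dose, a single time and no DNA-damaging agent.

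The p53 protein is a transcription factor that the ubiquitin ligase MDM2 keeps scarce in unstressed cells. After DNA damage or other stress it accumulates and binds pairs of a short recognition element in the promoters or introns of its targets, which halt the cell cycle, repair DNA, alter metabolism or trigger cell death. MDM2 is itself a target, which closes a negative feedback loop. Many of these promoters also respond to other factors, so the level of a target is not a readout of p53 alone.

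Promoter windows are shown first for the members that hold a match to the p53 element near their start and have values here. RefSeq windows on GRCh38.p14, running from 250 bases before to 50 bases after a gene's start, were found for 25 of the 32 members (37 windows). A match to the p53 half-site, the decamer that p53 binds in pairs, was found on either strand in 6 of these windows (16.2%), against 6.64% of all 34943 windows in the table. The members were listed as p53 targets, so this share is not independent of the choice of genes. In the stretches below, written 5′ to 3′ on the strand of the gene, capitals mark the match.
FAS, chr10:88991294-88991333, plus strand: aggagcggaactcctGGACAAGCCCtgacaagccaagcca
SESN1, chr6:109009013-109009052, minus strand: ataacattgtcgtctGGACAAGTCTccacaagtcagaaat
PLK2, chr5:58460194-58460233, minus strand: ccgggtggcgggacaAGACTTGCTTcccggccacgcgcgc
AEN, chr15:88621291-88621330, plus strand: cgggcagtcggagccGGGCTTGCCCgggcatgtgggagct
DDB2, chr11:47214964-47215014, plus strand: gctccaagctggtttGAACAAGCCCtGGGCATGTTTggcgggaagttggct

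The matches of FAS and PLK2 began 122 and 132 bases before the start, and those of SESN1 and AEN 49 and 34 bases before it. DDB2 was the only member with a pair of matches at most 13 bases apart, a spacing present in 10 of all windows (0.0286%). Its matches began 5 and 16 bases after the start. The core TGGGAA, to which the Notch partner RBPJ binds, was searched on both strands and stood in 9 of the 37 member windows (24.3%) against 24.0% of all windows. Its 7 members were ZMAT3, PLK2, POLH, SESN1, FAS, MDM2 and DRAM1. CACGTG, the E-box that MYC can bind, stood in 5 member windows (13.5%) against 7.23%, in AEN, BBC3, BAX and EDA2R. A match is a description of the letters in the window and not a mapped binding site.

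The arrays had median intensities of 36.9 to 38.6, and arrays of the same group correlated at 0.987 to 0.988 across probe sets. All 10 colon epithelium markers were above the background level of the array (an intensity of 45.7, from Bacillus control probe sets), with summed intensities of 37151 to 39386 in DMSO and 37450 to 39004 in CompE. Above that level were 3 of 8 fibroblast markers (sums 308 to 438 and 367 to 373), 1 of 6 measured leukocyte markers (1600 to 1879 and 1242 to 1483, nearly all from LYZ, with PTPRC below background) and 1 of 6 endothelium markers (265 to 324 and 245 to 283). The summed leukocyte level was lower in CompE without overlap. No gene of those 3 lists passed the test described below, and the smallest p were those of LUM, LYZ and KDR (limma adjusted p of 0.535, 0.132 and 0.143), whereas the colon factor CDX2 rose by 0.43 on the log2 scale. The Notch target HES1 fell from 811 ± 58.2 to 289 ± 29.2 (SD, n = 3) and the secretory factor ATOH1 rose from 94.1 ± 13.2 to 574 ± 53.7 (limma adjusted p of 0.00198 and 0.000892). On the log2 scale, MUC2 also rose, by 1.05, and OLFM4 and NRARP fell, by 2.60 and 0.32. For ACTB, the 3′ probe set over the 5′ probe set, a sign of RNA integrity and labelling, was 1.42 to 1.46 in DMSO and 1.49 to 1.53 in CompE, without overlap, whereas that of GAPDH was 0.958 to 0.979 and 0.918 to 0.970. The part of these differences in the values that follow was not tested. In whole cultures, fewer cells of a type and less RNA per cell cannot be told apart.

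Of the 29 targets tested, 4 passed an adjusted p of 0.05 between CompE and DMSO (13.8%), against 7.14% of all 14308 genes tested. TP53INP1, a stress-induced nuclear cofactor of p53, and the quinone oxidoreductase gene TP53I3 rose, by 1.73-fold and 1.62-fold. The death receptor gene FAS and the hydrolase gene CMBL fell, by 1.39-fold and 1.24-fold. Of all genes tested, 4.56% rose and 2.57% fell. The best-known targets of p53, CDKN1A and MDM2, did not pass, with differences on the log2 scale of -0.11 and -0.17. No target reached a 2-fold difference.

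Across the 29 targets, the 4 that passed included, small negative differences were common. The difference on the log2 scale was negative for 19 of the 29 targets and positive for 10, with a median of -0.11, beside a median of 0.02 over all genes tested, where 45.1% were negative. With EDA2R, which is below the filter, the median of the 30 measured targets was also -0.11. The 3 CompE arrays lay entirely below the 3 DMSO arrays for 12 targets and entirely above them for 4. Over all genes tested the shares were 13.0% below and 19.1% above. Without adjustment, p was under 0.05 for 11 targets with negative and 3 with positive differences, and for 24.5% of all genes tested. The median size of a difference, whatever its sign, was 0.17 among the targets and 0.12 among all genes, and the median standard error was 0.07 among the targets. Hybridisation controls, which are added in known amount to every array, were brighter by 0.14 on the log2 scale in CompE. With the arrays centred on them, 2 targets passed as higher and 9 as lower, and 340 genes were higher and 1552 lower, in place of 653 and 368. This centring subtracts the same amount from every gene, which puts the median of all genes at -0.12 and that of the targets at -0.25 and leaves the gap between them as it was.

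**Figure D1:**
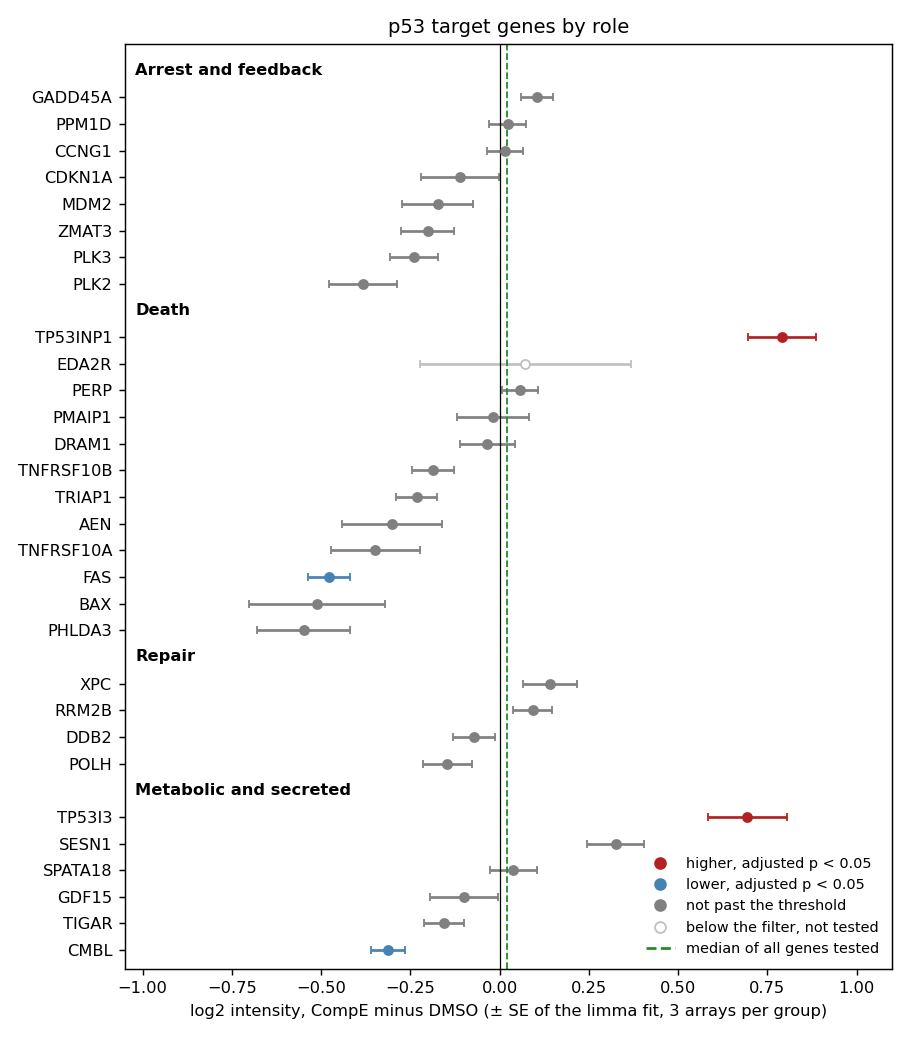
Difference in log2 intensity between CompE and DMSO (horizontal axis; points are the fitted differences, bars their SE, 3 arrays per group) for the 30 measured p53 targets, grouped by role; filled red and blue points passed an adjusted p of 0.05, the open point was not tested, and the dashed line is the median of all genes tested (0.02). TP53INP1 at 0.79 and TP53I3 at 0.69 stand to the right, FAS at -0.48 and CMBL at -0.31 are the lower targets that passed, and most other points lie between -0.4 and 0.2.

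Among the death genes 1 rose and 1 fell of the 11 tested, or 18.2%, against 7.14% of all genes tested. The group had 2 positive and 9 negative differences and a median of -0.23. TP53INP1 binds the kinase HIPK2 in the complex that phosphorylates p53, and it also acts in autophagy. Its intensity was 219, 193 and 177 on the DMSO arrays and 332, 363 and 321 on the CompE arrays. Every CompE array was above every DMSO array, by a margin wider than the range of either group. The means were 196 ± 21.3 and 339 ± 21.9 (SD, n = 3), a rise of 0.79 ± 0.10 on the log2 scale (SE) with a limma adjusted p of 0.0115. The adjusted p was 0.0553 without CompE replicate 1 and 0.0547 without DMSO replicate 2.

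FAS encodes the receptor through which FAS ligand starts caspase activation, and it carries one of the promoter matches printed above. Its intensity was 374, 335 and 355 in DMSO and 262, 252 and 249 in CompE. The CompE arrays lay close together and well below the lowest DMSO array. The means were 355 ± 19.7 and 255 ± 6.68 (SD, n = 3), and the log2 difference was -0.48 ± 0.06 (SE), with a limma adjusted p of 0.0122. The adjusted p was 0.0539 without CompE replicate 1 and 0.0585 without DMSO replicate 3.

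The receptors for the death ligand TRAIL had negative differences that did not pass. TNFRSF10B had intensities of 1131, 1069 and 1082 in DMSO and 975, 1003 and 908 in CompE. The groups did not overlap, and the log2 difference was -0.19 ± 0.06 (SE, n = 3; limma adjusted p = 0.124). TNFRSF10A differed by -0.35 ± 0.13 (SE, n = 3; limma adjusted p = 0.164), again without overlap.

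PHLDA3 encodes a pleckstrin-homology protein that competes with AKT for the membrane. It had intensities of 179, 144 and 148 in DMSO and 124, 95.2 and 103 in CompE, so the groups did not overlap. The log2 difference of -0.55 ± 0.13 (SE, n = 3) was the most negative among the targets and had a limma adjusted p of 0.0654. The adjusted p was 0.0224 with the stricter filter on dim probe sets, 0.0321 with arrays centred on the hybridisation controls and 0.0490 after quantile normalization, and 0.0792 to 0.151 with 1 array left out. TRIAP1, an inhibitor of apoptosis at the mitochondrion, was at 1216, 1208 and 1280 in DMSO and 1012, 1110 and 1032 in CompE. Its groups did not overlap either, with a log2 difference of -0.23 ± 0.06 (SE, n = 3; limma adjusted p = 0.0739).

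BAX, the pore-forming effector of mitochondrial apoptosis, was dim. Its intensity was 59.5, 44.7 and 57.9 in DMSO and 42.3, 29.2 and 43.1 in CompE. All CompE arrays, and the DMSO array at 44.7, were below the background intensity of 45.7. The CompE arrays were also below all DMSO arrays. The DMSO mean was 54.1 ± 8.13 (SD, n = 3). From the mean of its log2 values, DMSO was 1.17-fold above background. With CompE below background, the means alone put the difference at 1.17-fold or more. That value takes no account of the spread between arrays, so it is not a lower limit. The 95% interval from the fit was -0.98 to -0.04 on the log2 scale. The limma adjusted p was 0.176. PMAIP1, which encodes the BH3-only protein NOXA, differed by -0.02 on the log2 scale, with overlapping groups. The nuclease gene AEN differed by -0.30 ± 0.14 (SE, n = 3; limma adjusted p = 0.255), the desmosomal gene PERP by 0.06 and the autophagy gene DRAM1 by -0.03. In none of these 3 were the groups separate. EDA2R had mean intensities of 19.8 in DMSO and 21.6 in CompE, below background in both.

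No arrest or feedback gene passed among the 8 tested, where 5 differences were negative, 3 positive and the median was -0.14. Without adjustment, limma gave p under 0.05 for 3 of the negative and 0 of the positive ones (37.5% of the 8, against 24.5% over all genes). PLK2, PLK3 and ZMAT3 passed as lower when arrays were centred on the hybridisation controls, where 1552 of all 14308 genes tested were lower. CDKN1A encodes p21, the inhibitor of cyclin-dependent kinases that carries out p53-dependent arrest. Its intensity was 1937, 1698 and 1503 on the DMSO arrays and 1646, 1639 and 1455 on the CompE arrays. The groups overlapped. The log2 difference was -0.11 ± 0.11 (SE, n = 3; limma adjusted p = 0.586), with a 95% interval of -0.38 to 0.16 from the fit. An interval of this width leaves out a 1.5-fold rise but does not show that the level was equal.

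MDM2 was at 541, 614 and 609 in DMSO and 528, 463 and 576 in CompE. These groups overlapped as well, at a log2 difference of -0.17 ± 0.10 (SE, n = 3; limma adjusted p = 0.344) and a 95% interval of -0.42 to 0.07. The phosphatase gene PPM1D and the cyclin gene CCNG1, which with MDM2 dampen the response, differed by 0.02 and 0.01 on the log2 scale. CCNG1 had mean intensities of 4014 in DMSO and 4054 in CompE. GADD45A, a stress sensor that binds PCNA and CDK1, differed by 0.10 ± 0.05 (SE, n = 3; limma adjusted p = 0.229), with all CompE arrays above all DMSO arrays.

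The polo-like kinase genes PLK2 and PLK3, which act in checkpoints and stress signalling, were dimmer. PLK2 had intensities of 118, 105 and 111 in DMSO and 75.2, 92.4 and 88.7 in CompE. Its groups were separate, and the log2 difference was -0.38 ± 0.10 (SE, n = 3; limma adjusted p = 0.0733). PLK3 had intensities of 83.6, 87.8 and 80.8 in DMSO and 72.9, 74.5 and 66.3 in CompE. It likewise showed separate groups, at -0.24 ± 0.07 (SE, n = 3; limma adjusted p = 0.0935). ZMAT3, an RNA-binding zinc finger protein that controls splicing, was at 372, 372 and 338 in DMSO and at 337, 306 and 297 in CompE. The groups touched without overlapping, and the difference of -0.20 ± 0.07 (SE, n = 3) had a limma adjusted p of 0.165.

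Of the 6 metabolic and secreted targets tested, 1 rose and 1 fell, with 3 differences of each sign. Those that passed were 33.3% of this small group, against 7.14% of all genes tested. TP53I3, also known as PIG3, encodes an oxidoreductase linked to reactive oxygen species. Its intensity was 142, 122 and 157 in DMSO and 231, 240 and 207 in CompE. All CompE arrays were above all DMSO arrays, with means of 140 ± 17.4 and 226 ± 17.1 (SD, n = 3). The rise was 0.69 ± 0.11 on the log2 scale (SE), with a limma adjusted p of 0.0238. It was 0.0440 without DMSO replicate 3, 0.0501 to 0.0915 without any other single array, and 0.0664 with no filter on dim probe sets.

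SESN1 encodes sestrin 1, which restrains the growth kinase complex mTORC1, and carries a promoter match. It was at 233, 268 and 273 in DMSO and at 336, 326 and 307 in CompE. The groups did not overlap, and the log2 difference of 0.33 ± 0.08 (SE, n = 3) did not pass (limma adjusted p = 0.0703). The 7 smaller positive differences, those of PPM1D, CCNG1, GADD45A, PERP, XPC, RRM2B and SPATA18, were at most 0.14 after rounding. All 7 were negative when the arrays were centred on the hybridisation controls, that of XPC by only -0.00079.

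CMBL encodes carboxymethylenebutenolidase, a hydrolase of liver and intestine that activates ester prodrugs. Its brightest probe set was at 2235, 2337 and 2232 in DMSO and at 1853, 1780 and 1842 in CompE. The spread within each group was small beside the gap between them, and the means of 2268 ± 59.7 and 1825 ± 39.6 (SD, n = 3) differed by -0.31 ± 0.05 on the log2 scale (SE; limma adjusted p = 0.0221). The next probe set of CMBL gave 1332, 1474 and 1358 in DMSO and 1355, 1254 and 1534 in CompE, with overlap, a difference of -0.01 and a limma adjusted p of 0.957. The adjusted p of the brightest probe set was 0.0579 to 0.0857 with any 1 array left out, 0.0649 with no filter and 0.216 for the mean of the gene's probe sets.

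TIGAR, a phosphatase that lowers glycolytic flux, was at 487, 487 and 508 in DMSO and at 467, 436 and 427 in CompE. The groups were separate, with a log2 difference of -0.16 ± 0.06 (SE, n = 3; limma adjusted p = 0.162). GDF15, a secreted stress cytokine that is often used as a marker of p53 activity, was at 1626, 1494 and 1330 in DMSO and at 1361, 1494 and 1293 in CompE. Its groups overlapped, at -0.10 ± 0.10 (SE, n = 3; limma adjusted p = 0.582). SPATA18, a regulator of mitochondrial quality, differed by 0.04.

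None of the 4 repair genes passed limma's test, also at an unadjusted p of 0.05, and their median difference was 0.01. XPC, which recognises damage in nucleotide excision repair, was at 336, 305 and 346 in DMSO and at 366, 384 and 338 in CompE. The groups overlapped, at 0.14 ± 0.08 (SE, n = 3; limma adjusted p = 0.316). DDB2, its partner in recognising ultraviolet lesions and the gene with the paired promoter match, differed by -0.07 ± 0.06 (SE, n = 3; limma adjusted p = 0.516). POLH, the polymerase that copies past such lesions, was at 121, 113 and 116 in DMSO and 107, 97.6 and 112 in CompE. Its groups were separate by a narrow margin, at -0.15 ± 0.07 (SE, n = 3; limma adjusted p = 0.253). RRM2B, a ribonucleotide reductase subunit, was at 322, 297 and 309 in DMSO and 320, 328 and 341 in CompE. These values overlapped, at 0.09 ± 0.05 (SE, n = 3; limma adjusted p = 0.360).

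**Figure D2:**
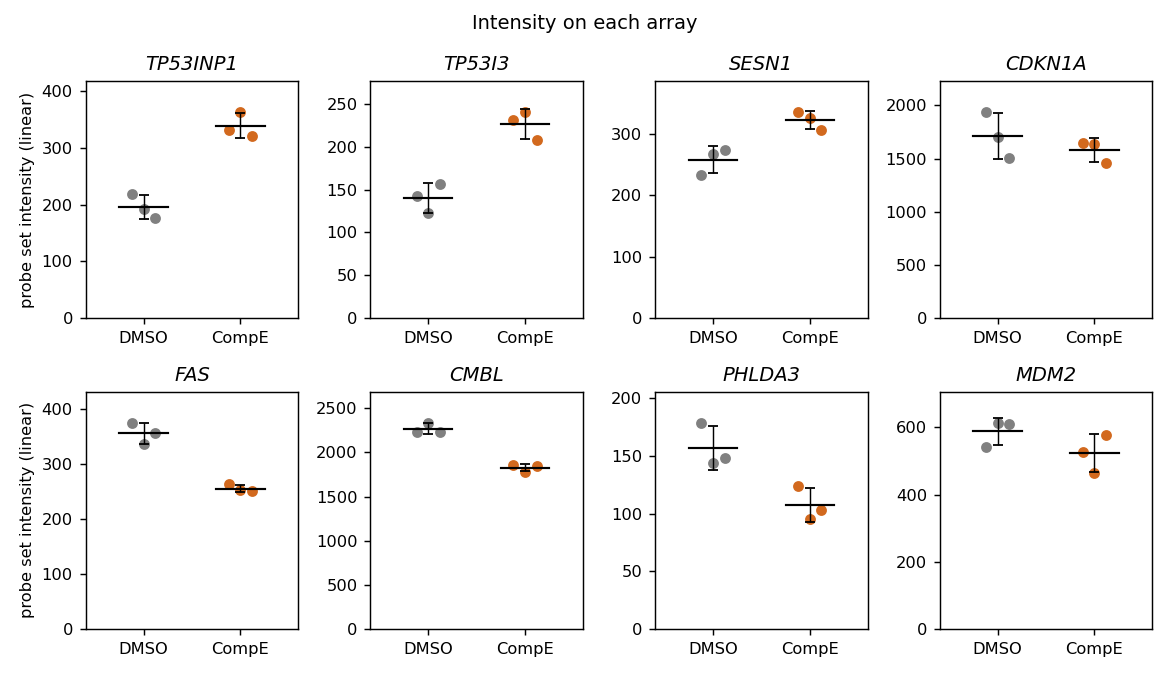
Probe set intensity on a linear scale starting at 0 (vertical axis) on each array for 8 p53 targets, with 3 DMSO arrays in grey and 3 CompE arrays in orange; black lines are group means and bars the SD. The groups are separate for TP53INP1, TP53I3, SESN1, FAS, CMBL and PHLDA3 and overlap for CDKN1A and MDM2.

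More than 1 probe set past the filter was available for 15 of the targets, and these were compared as a check within each gene. Of 31 further probe sets, 7 were below background in both groups and are not read here, among them the only further ones of PHLDA3, PPM1D, BAX and PLK3. Of the other 24, which belong to 11 targets, 22 had the sign of the brightest, and the 2 that did not belonged to MDM2 and ZMAT3. FAS had 3 further probe sets, all negative, at -0.57 to -0.32 on the log2 scale. MDM2 had 5 above background, of which 4 were negative, over a range of -0.49 to 0.16. Both further probe sets of TNFRSF10B were at -0.23. A shared sign was not always a shared size. The further probe sets of ZMAT3 above background were at -0.05, 0.01 and -0.05, against -0.20 for its brightest. Those of TNFRSF10A were at -0.26 and -0.02, against -0.35. TP53INP1 and TP53I3 had no further probe set past the filter.

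**Figure D3:**
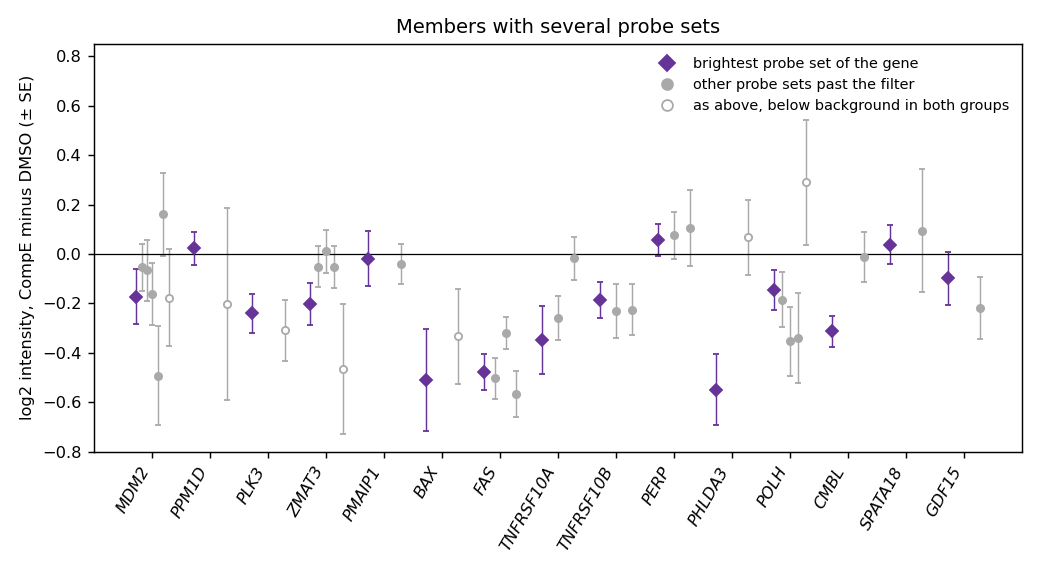
Difference in log2 intensity between CompE and DMSO (vertical axis, bars are SE, 3 arrays per group) for every probe set past the filter of the 15 targets with more than 1; purple diamonds are the brightest probe set of each gene and circles the others, open where both groups were below background. All FAS probe sets lie below 0, between -0.57 and -0.32, whereas those of CMBL lie at -0.31 and -0.01.

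Genes that act on p53 were read from a list of 30, of which 27 were tested. In this list 2 genes rose and none fell (7.41% of the list, near the 7.14% of all genes), with a median log2 difference of 0.10. Without adjustment, p was under 0.05 for 6 positive differences and 1 negative, or 25.9% of the list, near the 24.5% of all genes. HIPK2, the kinase that phosphorylates p53 together with TP53INP1, rose from 1282 ± 33.8 to 1906 ± 29.4 (SD, n = 3; limma adjusted p = 0.00362). All CompE arrays were above all DMSO arrays, and of 9 further probe sets 7 had the same sign; with the mean of its probe sets in place of the brightest it did not pass. MDM4, which binds p53 and blocks its activity, rose from 470 ± 17.0 to 561 ± 18.1 (SD, n = 3; limma adjusted p = 0.0483). MDM4 did not pass with any 1 array left out, and 3 of its 5 further probe sets shared its sign.

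A list of 30 further p53 targets, 27 of them tested, had 3 genes that rose and 2 that fell, with a median of 0.02. Those that passed were 18.5% of the list, against 7.14% of all genes tested. NOTCH1, a receptor that gamma-secretase cleaves, rose from 514 ± 10.5 to 882 ± 25.2 (SD, n = 3; limma adjusted p = 0.00173). SUSD6, a membrane protein, rose from 201 ± 10.9 to 296 ± 23.1 (SD, n = 3; limma adjusted p = 0.0169). APAF1, the scaffold of the apoptosome, rose by 0.31 on the log2 scale (limma adjusted p = 0.0465), and its 2 further probe sets were at -0.10 and 0.23. The receptor tyrosine kinase gene EPHA2 fell from 611 ± 19.1 to 392 ± 3.13 (SD, n = 3; limma adjusted p = 0.00259), and the carboxylesterase gene CES2 fell by 0.41 on the log2 scale (limma adjusted p = 0.0354). Neither APAF1 nor CES2 passed with any 1 array left out, and SUSD6 passed in 2 of 6 such fits. Among 25 cell cycle genes that p21 represses through the DREAM complex none passed. Their median was 0.02, with 4 positive and 0 negative differences at an unadjusted p under 0.05, or 16% of the list against 24.5% of all genes, and CDC25C had the smallest p (0.20 on the log2 scale, limma adjusted p = 0.0856).

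Lists of stress genes that respond to other factors were read beside the targets. Of 15 genes driven by ATF4, the factor of the amino acid and endoplasmic reticulum stress response, 5 fell and none rose, with a median of -0.19. That is 33.3% of the list, against 7.14% of all genes tested. The 5 were TRIB3 (-0.30), ATF3 (-0.82), DDIT4 (-0.26), SLC7A11 (-0.62) and CEBPB (-0.37), given as differences on the log2 scale. With CompE replicate 1 left out none of the list passed, and with any other single array left out 1 to 3 did. With no filter on dim probe sets 1 passed. DDIT3, at -0.74, had a limma adjusted p of 0.0545. Of 14 immediate early genes tested, 2 rose and 5 fell, with a median of -0.17. The share that passed was 50%, against the same 7.14% of all genes. JUN rose by 0.74 and DUSP1 by 0.44 on the log2 scale, and FOS (-1.20), FOSL1 (-0.49), IER3 (-0.80), DUSP6 (-0.67) and ATF3, which is on both lists, fell. With 1 array left out, 1 immediate early gene rose and 3 to 5 fell. When the arrays were centred on the hybridisation controls, 2 of the 25 DREAM genes passed as lower, beside 1552 of all 14308 genes tested. Every difference was lower by 0.14 in that setting, which puts the medians of the regulators, the other targets and the DREAM genes below 0. These medians are descriptions, and none of them was tested against that of the p53 targets.

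**Figure D4:**
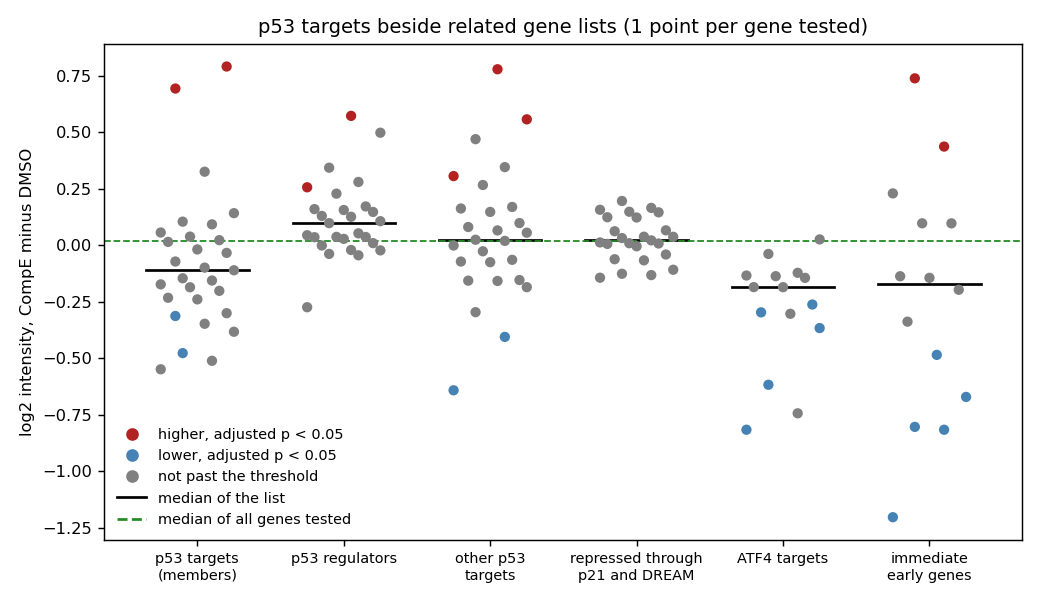
Difference in log2 intensity between CompE and DMSO (vertical axis) for every gene tested, 1 point per gene, in the p53 targets and 5 related lists; red and blue points passed an adjusted p of 0.05 as higher or lower, black lines are list medians and the dashed line is the median of all genes tested. Medians are -0.11 for the p53 targets, 0.10 for p53 regulators, 0.02 for other p53 targets and for genes repressed through p21 and DREAM, -0.19 for ATF4 targets and -0.17 for immediate early genes.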

How the data were processed

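Per the labels and the design text of the series, the authors amplified RNA with a 3′ IVT kit and scaled the arrays to each other in dChip. Its version and use of mismatch probes were not given in the sources used here. Probe set intensity on a linear scale is what the authors deposited. Intensities were set to at least 1 and taken to log2, with no second normalization. Of 54674 probe sets, 62 controls and those in the lowest 40% of mean log2 (below 4.61) were left out. The brightest probe set with 1 gene name stood for each gene (14308 genes). Log2 differences can understate changes of dim genes.

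CompE was compared with DMSO on 3 arrays each by limma 3.58.1 in R 4.3.3 (lmFit and eBayes, two-sided), with Benjamini-Hochberg adjustment over all genes tested, and the code was tested on simulated data. "Rose" and "fell" mean an adjusted p under 0.05. P-values measure the spread between these 6 arrays, that is between triplicate cultures of 1 line, and the number of arrays limits the precision. Samples were grouped by their titles.

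Array values are given for members past the threshold, for the 3 smallest p of each role, and for CDKN1A, MDM2, BAX, FAS, TNFRSF10B, GDF15, SESN1, XPC and TIGAR; in other lists, each gene past the threshold and the gene with the smallest p are named. Members and lists were chosen with earlier results of these data known. The immediate early list had 1 gene below the filter. The array values of TRIAP1, which are beyond that rule, and the promoter stretches were chosen after the values were seen.

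The alternatives were another filter, none, quantile normalization, 16 added to each intensity, centring on 18 hybridisation controls, the mean of a gene's probe sets, the next probe set, the 10896 least variable probe sets, a replicate block, and each array left out.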

Additional observations from a re-analysis of the deposited data

How the results depend on the processing

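No target that passed changed direction under any alternative run. The targets counted as higher and lower (2 and 2 as reported) were 0 and 8 among the 10896 least variable probe sets, 1 and 1 with no filter, 3 and 6 with the stricter filter, 9 lower when centred on hybridisation controls (median -0.25), 1 lower with the mean of a gene's probe sets, and 2 and 3 after quantile normalization. Selection of the least variable probe sets uses the within-group spread and makes p too small by construction. Over all genes the counts of higher and lower were 1768 and 1162 for the least variable probe sets, 340 and 1552 when centred on hybridisation controls, 242 and 121 with no filter, and 1117 and 634 with the stricter filter. With 1 array left out, 0 to 2 targets were higher and 0 to 1 lower, their median was -0.15 to -0.048, and over all genes 162 to 352 were higher and 90 to 167 lower; these fits have fewer samples.

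The replicate numbers did not pair the cultures: same-numbered arrays correlated at 0.02, -0.10 and -0.02 in their deviations from the group means, and not every array correlated best with its own number. With a replicate block, 0 targets were higher and 0 lower, and over all genes 70 were higher and 32 lower.

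For dim targets such as BAX, near or below the background of the array, the size of a difference is not known, and 3 arrays per group limit the rest.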
